A study of Mus musculus with 8 samples.

Results

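The genes described here are the expressed Zfp genes of the embryonic mouse cerebral cortex. They are the genes whose symbol is Zfp followed by a number, with or without a final letter, and whose counts summed to at least 4000 over all 8 libraries. Of 390 Zfp-named genes among the 27179 genes counted, 260 met this rule. Members were thus chosen by their summed raw counts over both groups together and not by the difference between them, and the level of a member is no finding. RNA came from the cerebral cortex of 4 Taf8-deleted embryos, described as carrying a null and a loxP-flanked Taf8 allele (Taf8 -/lox), and of 4 Taf8-intact embryos, described as Taf8 +/+. Each library was made from a different embryo, from polyadenylated RNA without strand information. The sources used here give neither the recombinase that acted on the loxP-flanked allele, nor the cells in which it acted, nor the stage of the embryos, and the 2 groups differ in both alleles. By the leading part of the animal numbers, whose meaning is not given, 3 of the 4 Taf8-intact embryos go together and the 4 Taf8-deleted embryos each stand alone, so that Taf8-intact embryos may share a litter and their spread may be that of fewer independent samples than 4.

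Zfp proteins carry C2H2 zinc fingers, small folds held by a zinc ion through pairs of cysteines and histidines, which in tandem arrays read DNA sequence. Many also have a KRAB box, a domain that recruits the co-repressor Trim28 and, through it, the histone methyltransferase Setdb1, heterochromatin proteins and DNA methylation, and that silences transposons and protects genomic imprints. The genes arose largely by tandem duplication and stand in clusters on many chromosomes. Taf8 is a subunit of TFIID, a general factor that binds the core promoter ahead of RNA polymerase II, and the comparison asks how these genes' transcripts differ in the cortex without Taf8.

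Most Zfp genes that differed were lower in the Taf8-deleted cortex, and by small amounts. Among the 10 largest falls, Zfp2, Zfp729a, Zfp128, Zfp260, Zfp605 and Zfp180 have core promoters that share a short sequence. The 90 bases around each of these starts, 80 before the start and 10 from it on, are shown because all hold the motif GGGANNTGTAGT, in capitals. This motif is known as a site of the activator ZNF143 (Zfp143 in the mouse). It begins 2 bases before the start in Zfp2 and 16 to 34 bases before it in the other 5. The sequences are from RefSeq (GRCm38.p6), read 5′ to 3′ on the strand of the gene.
Zfp2 (chr11:50916167-50916256, minus strand): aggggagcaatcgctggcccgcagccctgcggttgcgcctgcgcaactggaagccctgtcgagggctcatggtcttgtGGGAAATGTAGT
Zfp729a (chr13:67637772-67637861, minus strand): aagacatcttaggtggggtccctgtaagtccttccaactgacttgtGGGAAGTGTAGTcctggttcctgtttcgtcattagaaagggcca
Zfp128 (chr7:12881098-12881187, plus strand): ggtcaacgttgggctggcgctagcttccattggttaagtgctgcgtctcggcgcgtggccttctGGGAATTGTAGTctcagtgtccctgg
Zfp260 (chr7:30094996-30095085, plus strand): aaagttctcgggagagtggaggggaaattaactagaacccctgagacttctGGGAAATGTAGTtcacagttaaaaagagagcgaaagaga
Zfp605 (chr5:110110012-110110101, plus strand): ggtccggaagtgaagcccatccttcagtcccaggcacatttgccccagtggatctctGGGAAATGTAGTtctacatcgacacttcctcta
Zfp180 (chr7:24081817-24081906, plus strand): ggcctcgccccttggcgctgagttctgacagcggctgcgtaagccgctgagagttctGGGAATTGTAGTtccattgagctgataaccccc
No such match stands in the same window of Zfp775, Zfp414, Zfp511 and Zfp873, the rest of the 10 largest falls. The motif was noticed after the fold changes were known. Zfp346 and Zfp213, shown next, were among the largest rises and hold no such match in this window.
Zfp346 (chr13:55105242-55105331, plus strand): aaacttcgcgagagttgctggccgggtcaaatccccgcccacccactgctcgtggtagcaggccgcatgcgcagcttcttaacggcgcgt
Zfp213 (chr17:23564217-23564306, minus strand): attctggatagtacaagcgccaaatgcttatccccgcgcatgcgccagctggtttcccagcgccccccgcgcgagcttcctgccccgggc

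Total counts were 39590959 to 44788200 in the Taf8-deleted libraries and 42320662 to 43931678 in the Taf8-intact libraries, so that 3 counts, the limit that a count of 0 allows, are 0.067 to 0.0758 CPM (counts scaled to the library total). Taf8 itself had 30, 14, 29 and 14 counts in the Taf8-deleted libraries and 1491, 1383, 1222 and 1403 in the Taf8-intact libraries, with no overlap (log2 fold change -6.02 ± 0.14 (SE), adjusted p = 2.42e-10). In this tissue the summed level of 14 neuron markers was 5704 to 6213 CPM (from here on, scaled to the TMM-adjusted library size) in Taf8-deleted libraries and 8020 to 8817 CPM in Taf8-intact libraries, with 13 of 14 lower, and no overlap. That of 8 interneuron markers was 529 to 568 CPM against 733 to 819 CPM. That of 12 radial glia markers was 3538 to 3763 CPM against 2863 to 3146 CPM, with 7 higher and 4 lower. Summed endothelial markers were at 195 to 243 CPM against 170 to 178 CPM, with 8 of 8 higher. The summed levels of meningeal, microglia, red blood cell and choroid plexus markers overlapped between the groups. Of meningeal markers, at 75 to 233 CPM against 48.4 to 89.7 CPM, 6 of 8 were higher, of microglia markers 4 of 8 were higher and 1 lower, of red blood cell markers 4 of 7 were higher, and of choroid plexus markers 0 of 6 were called. Choroid plexus markers ranged from 14.5 to 930 CPM in the Taf8-deleted libraries and from 14.3 to 301 CPM in the Taf8-intact libraries. No marker was at 0 in all libraries. The part of these markers in the results on Zfp genes was not tested, and in bulk tissue fewer cells of a type and less RNA per cell cannot be told apart.

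Members together held 1.48% to 1.51% of all counts in Taf8-deleted libraries and 1.61% to 1.64% in Taf8-intact libraries. Their summed level was 14670, 14346, 14460 and 14883 CPM in the Taf8-deleted libraries and 16717, 16595, 16581 and 16275 CPM in the Taf8-intact libraries. Every Taf8-deleted library lay below every Taf8-intact library. The means were 14590 ± 237 CPM in Taf8-deleted and 16542 ± 188 CPM in Taf8-intact libraries (SD, n = 4 each).

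Of the 260 members, all of which passed the filter on low counts, 146 (56.2%) fell and 38 (14.6%) rose at an adjusted p under 0.05 (edgeR's quasi-likelihood test, Benjamini-Hochberg over 16074 genes), and 76 did not pass. Over all genes tested 32.9% fell and 30.6% rose, 63.5% in either direction. Over the 9944 genes tested with at least 4000 counts, members included, 40.4% fell and 29.7% rose, 70.1% in either direction. Members were thus called about as often as genes of like counts and more often in the lower direction. The median log2 fold change, Taf8-deleted over Taf8-intact, was -0.15 for members (quartiles -0.33 and 0.02), -0.04 for genes with at least 4000 counts and 0.00 for all genes tested. Scaling by upper quartiles or by library totals alone moved this split to 116 lower and 56 higher and to 115 lower and 56 higher. Under upper quartiles the shares over all genes tested were 27.9% lower and 36.3% higher, and 33.7% and 36.8% among genes with at least 4000 counts. Under totals alone they were 27.5% and 36.7%, and 33.2% and 37.2%. The log2 fold change was below 0 for 191 members and above 0 for 69. The 4 libraries of one group did not overlap those of the other for 136 members that were lower and 35 that were higher, 52.3% and 13.5% of members, against 37.5% and 27.3% of genes with at least 4000 counts and 30.1% and 27.6% of all genes tested.

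Few members differed by much. A called change of at least 1.5-fold was seen for 26 lower and 4 higher members of 260, against 7.81% lower and 3.73% higher among genes with at least 4000 counts and 9.54% lower and 11.0% higher among all genes tested. Against a threshold of 1.5-fold instead of 0, edgeR's glmTreat left 12 lower and 3 higher of the 260. Over genes with at least 4000 counts it left 4.82% lower and 2.26% higher, and over all genes tested 5.08% and 5.8%. Only Zfp2 changed more than 2-fold. Of the 9944 genes with at least 4000 counts 183 were called lower and 87 higher by at least 2-fold. Of all 16074 genes tested 486 were lower and 863 higher by as much. By the usual box plot limits, 1.5 times the interquartile range beyond the quartiles (log2 fold changes of -0.86 and 0.55), 2 members were outliers below, Zfp2 and Zfp775, and 4 above, Zfp660, Zfp346, Zfp213 and Zfp580.

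**Figure D1:**
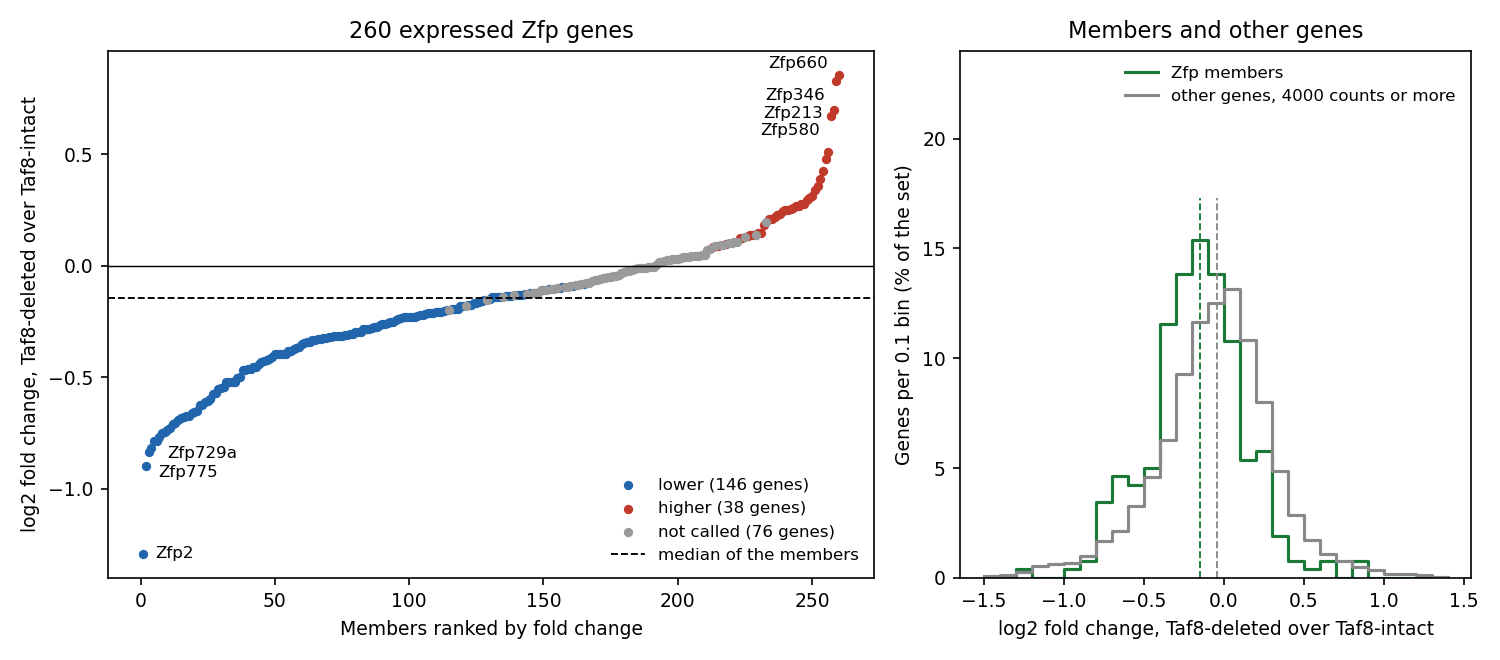
Left, the log2 fold change of each of the 260 members, Taf8-deleted over Taf8-intact, in rank order, with 146 lower, 38 higher and 76 not called. Right, the percentage of members and of other genes with at least 4000 counts in bins of log2 fold change, with dashed lines at the medians of -0.15 and -0.04.

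Zfp2 (gene 22678, chr11:50897265-50916216, minus strand), a protein with 13 predicted fingers and no KRAB box found, fell the most. Its level was 19.2, 17.3, 17.7 and 21.7 CPM in the Taf8-deleted libraries and 44.4, 46.6, 49.1 and 45.4 CPM in the Taf8-intact libraries. All Taf8-deleted libraries were below the Taf8-intact ones by a wide gap, with a log2 fold change of -1.29 ± 0.07 (SE; adjusted p = 1.44e-08), or 0.409-fold. Zfp775 (gene 243372, chr6:48602007-48621548, plus strand), with 11 fingers, had 13.3, 14.4, 14.2 and 14.5 CPM in Taf8-deleted libraries and 26.5, 26.4, 25.2 and 27.1 CPM in Taf8-intact libraries. The groups were far apart against their own spread, and its log2 fold change was -0.90 ± 0.05 (SE; adjusted p = 2.25e-08). Zfp729a (gene 212281), a KRAB protein with 27 fingers, had 16.1, 13.5, 16.2 and 17.5 CPM in Taf8-deleted libraries and 27.2, 30.2, 30.4 and 25.4 CPM in Taf8-intact libraries. The groups did not overlap, with a log2 fold change of -0.84 ± 0.08 (SE; adjusted p = 3.60e-06). Zfp729a lies beside its paralog Zfp729b, and how reads shared by such copies were counted is not given in the sources used here.

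Zfp260, a 12-finger protein with no KRAB box found and 27.1 CPM per kilobase over all libraries, had the highest level per length of the 10 largest falls. It had 69.8, 73.4, 73.1 and 79.4 CPM in Taf8-deleted libraries and 125, 133, 128 and 123 CPM in Taf8-intact libraries. The lowest Taf8-intact library was well above the highest Taf8-deleted library, and the log2 fold change was -0.78 ± 0.04 (SE; adjusted p = 2.27e-08). Zfp180 had 39.8, 38.4, 38.4 and 40.3 CPM in Taf8-deleted libraries and 64.6, 65.7, 64.4 and 66.9 CPM in Taf8-intact libraries. The groups were narrow and apart, and its log2 fold change was -0.74 ± 0.03 (SE; adjusted p = 5.98e-09). Zfp605, a KRAB protein, averaged 40.7 ± 1.55 CPM in Taf8-deleted libraries and 68.3 ± 2.55 CPM in Taf8-intact libraries (SD, n = 4 each). Zfp128, another KRAB protein, averaged 12.2 ± 0.67 CPM in Taf8-deleted libraries and 21.5 ± 0.66 CPM in Taf8-intact libraries. The groups of both genes were apart. The other members among the 10 largest falls were Zfp414, Zfp511 and Zfp873, with log2 fold changes of -0.79, -0.77 and -0.74 and groups that did not overlap. Zfp511 shares part of its locus with Tubgcp2, a gamma-tubulin complex gene with 35389 counts that rose (log2 fold change 0.27), and unstranded reads of the shared part cannot be assigned to either gene.

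Zfp660 (gene 666257, chr9:122903248-122914158) rose the most. Its level was 18.2, 16.0, 15.4 and 18.8 CPM in Taf8-deleted libraries and 9.60, 9.82, 9.10 and 9.29 CPM in Taf8-intact libraries. Taf8-deleted libraries were all higher, with a log2 fold change of 0.86 ± 0.07 (SE; adjusted p = 8.09e-07). Zfp346 (gene 26919, chr13:55105271-55135071, plus strand), which encodes a zinc finger protein that binds double-stranded RNA, had 70.1, 66.6, 72.4 and 69.2 CPM in Taf8-deleted libraries and 38.7, 41.3, 38.8 and 38.0 CPM in Taf8-intact libraries. The gap between the groups was far wider than either group's spread, with a log2 fold change of 0.83 ± 0.04 (SE; adjusted p = 7.74e-09). Zfp213 averaged 37.0 ± 2.21 CPM in Taf8-deleted libraries and 22.8 ± 0.54 CPM in Taf8-intact libraries (SD, n = 4 each). Its log2 fold change was 0.70 ± 0.05 (SE; adjusted p = 1.67e-07), and the groups did not overlap. It had 10283 counts in all, and the overlapping 6330415G19Rik had 457. Zfp580 had 36.7, 38.6, 40.2 and 31.5 CPM in Taf8-deleted libraries and 23.1, 25.1, 21.3 and 22.8 CPM in Taf8-intact libraries, with a log2 fold change of 0.67 ± 0.08 (SE; adjusted p = 1.02e-05). Its replicate 4 was the lowest Taf8-deleted library and still above every Taf8-intact library.

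The remaining rises among the 10 largest were smaller. They were Zfp963, Zfp707, Zfp619, Zfp568, Zfp612 and Zfp513, with log2 fold changes of 0.51, 0.48, 0.42, 0.39, 0.36 and 0.34. Zfp963 had 21.4, 15.7, 16.0 and 15.7 CPM in Taf8-deleted libraries and 12.8, 12.4, 10.1 and 13.1 CPM in Taf8-intact libraries, so that replicate 1 stood above the other Taf8-deleted libraries. Its log2 fold change had the largest error of the 20 genes (SE 0.12; adjusted p = 0.00268).

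**Figure D2:**
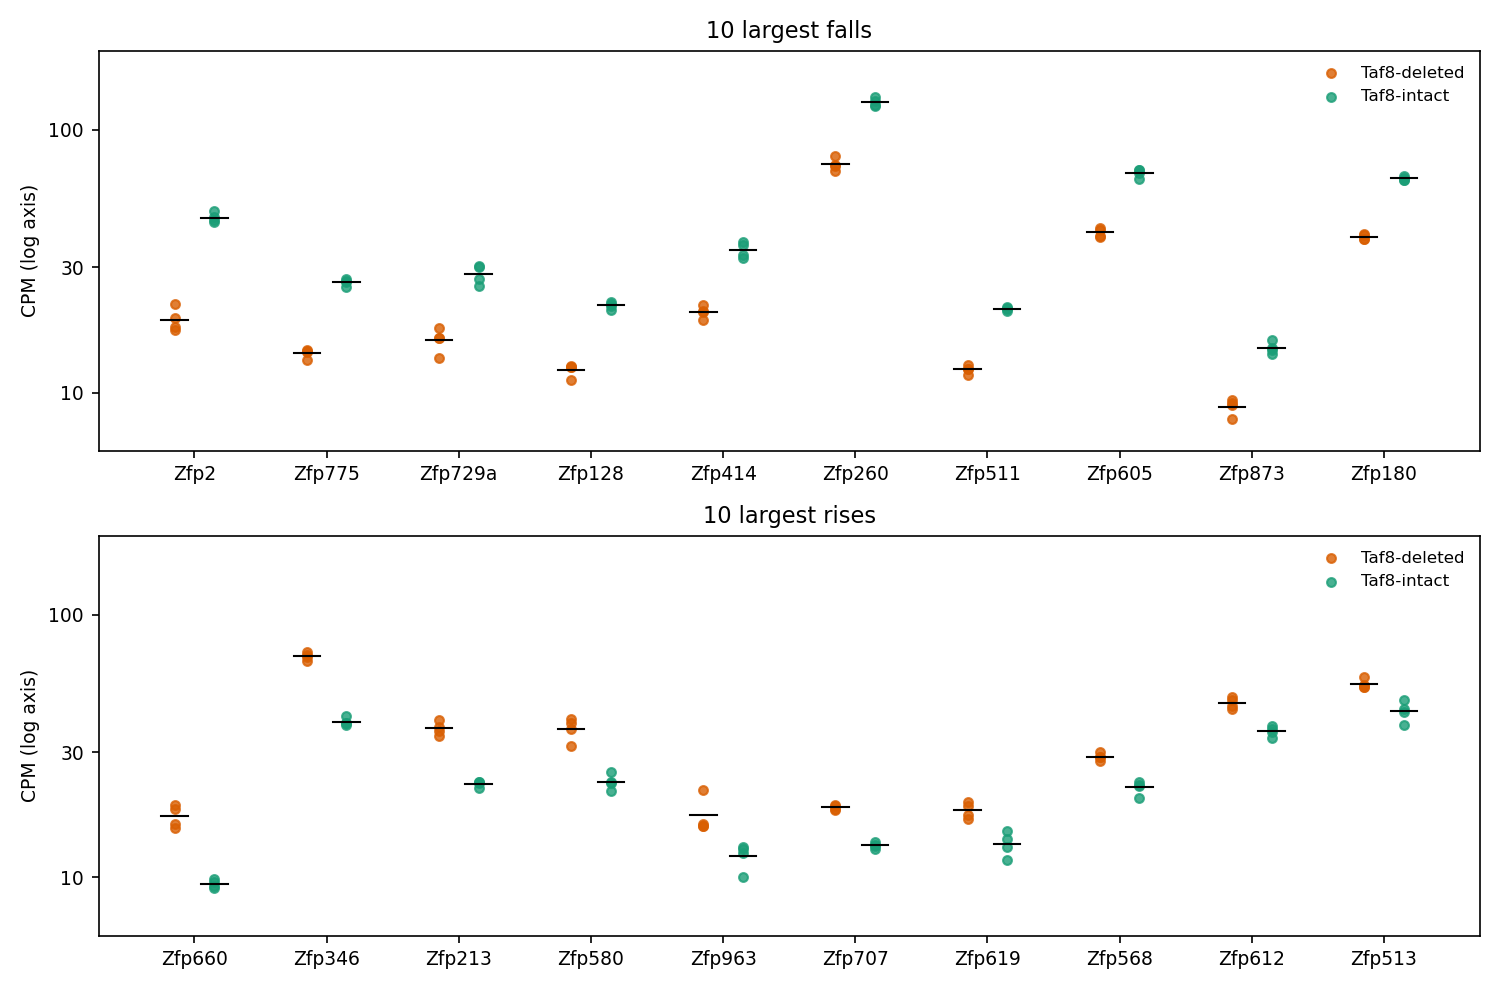
CPM on a log axis of the 10 members with the largest falls (top) and of the 10 with the largest rises (bottom), each point 1 library, Taf8-deleted left of Taf8-intact, with bars at the means. In all 20 genes the 4 Taf8-deleted libraries lie on one side of the 4 Taf8-intact libraries, as for Zfp2 at 17.3 to 21.7 against 44.4 to 49.1 CPM.

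With members split by summed counts into 3 sets of 86 or 87, 79.3% were called in the highest set, 68.6% in the middle set and 64.4% in the lowest. The 5 with the highest counts per kilobase of counted exon length were Zfp428 (87.3 CPM per kilobase over all libraries), Zfp207 (84.96), Zfp664 (78.9), Zfp146 (69.1) and Zfp422 (55.6). Zfp207, a protein of the mitotic spindle, had 310, 306, 309 and 313 CPM in Taf8-deleted libraries and 321, 337, 336 and 299 CPM in Taf8-intact libraries. These groups overlapped, with a log2 fold change of -0.06 ± 0.04 (SE; adjusted p = 0.186). Zfp422 was the only called member of the 5, at a log2 fold change of -0.14 (adjusted p = 0.0104), and it lost the call without Taf8-deleted replicate 1 or Taf8-intact replicate 1 or 2 (adjusted p = 0.0516 to 0.0558). Zfp428, Zfp664 and Zfp146 had log2 fold changes of 0.03, 0.04 and -0.02. Zfp428 and Zfp664 passed as higher when libraries were scaled by upper quartiles (adjusted p = 0.0452 and 0.026) or by totals alone (0.0478 and 0.0214), and Zfp207 passed as lower without Taf8-intact replicate 4 (0.0432). Across the 260 members the log2 fold change and the log10 of summed counts, which come from the same libraries, had a Pearson r of -0.01.

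The promoter motif was noticed after the fold changes were known, in the falls shown first, so its frequency there is a description. RefSeq promoters of 250 bases before and 50 after the start were listed for 216 members. The motif, on either strand, was found in 35 of them (16.2%), against 4.27% of the 12145 tested genes with a listed promoter and 5.33% of those with at least 4000 counts. Of the 10 largest falls, all with a listed promoter, 6 had a match, and of the 7 largest rises with a listed promoter 0 had. Of the 35 members with a match 24 fell (68.6%) and 1 rose (2.86%), with a median log2 fold change of -0.30. Of the 181 without a match 99 fell (54.7%) and 24 rose (13.3%), with a median of -0.13. In other tested genes, 35.1% of the 484 with a match fell and 27.5% rose, against 33.1% and 31.4% of the 11445 without. The match was on the strand of the gene in 24 members, and within 60 bases before the start or at it in 17, against 191 and 69 of the 484 other genes. Members with a match were neighbours in part: the chromosome 7 cluster around Zfp260 and the chromosome 13 cluster around Zfp729a held 14 of the 35, of which 11 fell. Elsewhere 13 of 21 members with a match fell and 1 rose, against 97 and 23 of 177 without. These sets were not compared by a test, and other splits of the same promoters also leaned lower. Of 16 members with GATGGCG, a YY1 site, 12 fell (75%) and 1 rose (6.25%), with a median of -0.26. Of 102 without GGGCGG, an Sp1 site, 67 fell (65.7%) and 10 rose (9.80%), with a median of -0.20. Of the 114 with it 56 fell (49.1%) and 15 rose (13.2%).

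**Figure D3:**
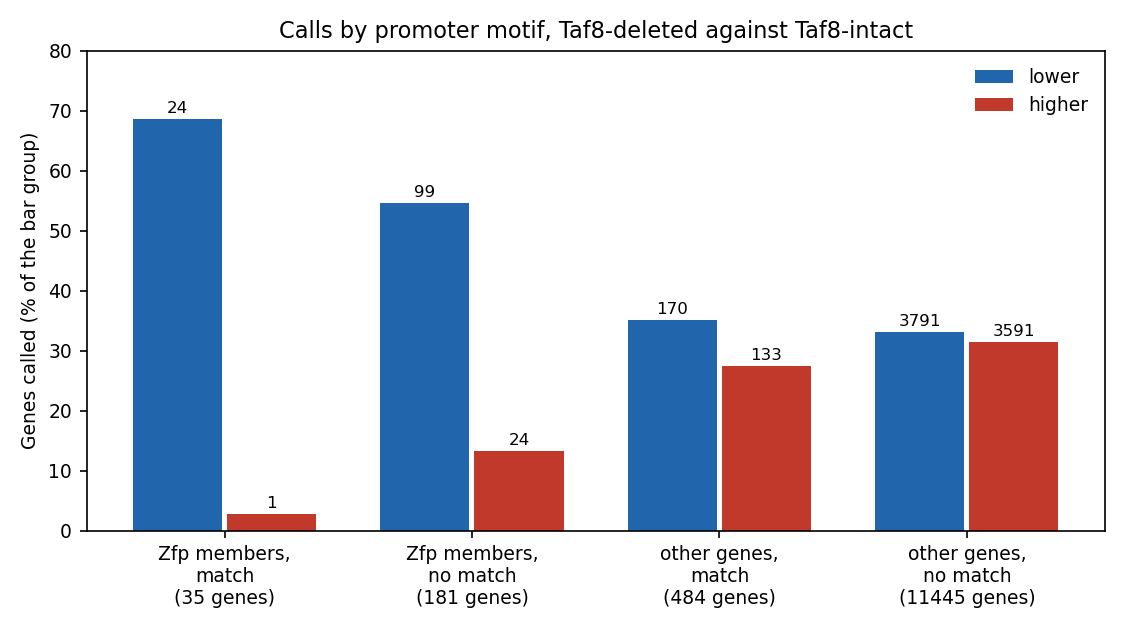
Percentage of genes called lower (left bar) and higher (right bar) in Taf8-deleted against Taf8-intact cortex, with the number of genes above each bar, by whether the listed promoter holds the motif. Among members 24 of 35 with a match and 99 of 181 without were lower.

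Zfp143 itself, among the members, had 35.1, 32.0, 35.5 and 35.1 CPM in Taf8-deleted libraries and 43.4, 40.6, 38.0 and 39.3 CPM in Taf8-intact libraries. The groups did not overlap and its log2 fold change was -0.23 ± 0.05 (SE; adjusted p = 0.00181). Thap11 and Hcfc1, whose proteins act at many of the same promoters, were named after their values were seen. They had log2 fold changes of -0.28 and -0.41 and fell, as did 40.4% of tested genes with at least 4000 counts. The part of these genes in the falls of members with the motif was not tested. Other short motifs were searched for comparison. TATAAA, the element bound by TBP within TFIID, was searched on the strand of the gene from 40 to 15 bases before the start, and was in 1 of 216 member promoters, against 83 of the 7915 tested genes with at least 4000 counts and 1.51% of all. The 5 others were searched on both strands of the whole listed promoter. GGGCGG was in 52.8% of member promoters, against 66.9% of tested genes and 73.0% of those with at least 4000 counts. CCGGAAG (an ETS site) was in 22.2% against 17.8% and 22%, GATGGCG in 7.41% against 6.72% and 8.49%, and TCGCGAG in 4.17% against 4.26% and 5.24%. GCATGCG, part of an NRF1 site, was in 9.72% against 6.79% and 8.07%, in 5 of the 25 listed promoters of members that rose and in 9 of the 123 of members that fell. It stands in the windows shown for Zfp346 and Zfp213, and not in the same windows of Zfp660 and Zfp580, the other outliers above. None of these strings contains another, and a match does not show binding.

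On the chromosomes, members lay on 19 autosomes and the X. Grouping members with gaps of at most 1 Mb gave 23 clusters of at least 3 members, with 143 members in all, of which 78 fell (54.5%) and 22 rose (15.4%). Of the 117 members outside clusters 68 fell (58.1%) and 16 rose (13.7%). Of the clusters, 11 held called members of both directions, 11 only lower ones and 1 only higher ones. The SD of log2 fold changes within clusters was 0.31, against 0.33 over all clustered members, and the log2 fold changes of 120 neighbouring pairs, in which most genes stand in more than 1 pair, had a Pearson r of 0.05.

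The chromosome 13 cluster (chr13:67490167-67729178) was the largest in which every member fell, with 7 of 7. Zfp729a and Zfp729b fell the most, by 0.84 and 0.69 on the log2 scale, and Zfp58, Zfp87, Zfp748, Zfp738 and Zfp65 had log2 fold changes of -0.18 to -0.34. All 5 of its listed promoters held GGGANNTGTAGT. In the chromosome 17 cluster at chr17:32765496-33631716, 7 of 12 fell and 0 rose, from Zfp414 and Zfp811 at -0.79 and -0.71 to Zfp870 at -0.01, and 0 of 11 listed promoters held it. The chromosome 6 cluster of Zfp775 had 7 lower of 10 and 0 higher. On chromosome 6 as a whole 14 of 18 members fell and 0 rose, and on chromosome 4 7 of 8 fell and 0 rose.

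The cluster at chr15:75615200-76925693 ran the other way. Zfp707, Zfp647, Zfp41 and Zfp251 rose, with log2 fold changes of 0.48, 0.25, 0.12 and 0.09, and Zfp623 and Zfp7 were at 0.09 and 0.03 without passing the test. The 55 other tested genes inside it had 30 higher and 13 lower, with a median of 0.24, where 30.6% and 32.9% of all genes tested were. Other clusters varied in this. In the chromosome 5 cluster 3 of 3 members fell, while of 13 other genes 6 rose and 2 fell (median 0.195). In the chromosome 7 cluster of Zfp773 4 of 6 members fell, and of 4 other genes 2 fell and 0 rose (median -0.31). Neighbouring members also parted. Zfp660, the largest rise, stands between Zfp445 (-0.14) and Zfp105 (-0.33), both lower. Zfp580 (0.67) and Zfp628 (-0.68) share a chromosome 7 cluster, and in the cluster of 14 with Zfp260 (-0.78), Zfp568 rose (0.39). In the chromosome 8 cluster of 5 KRAB genes Zfp963 rose while Zfp868, Zfp866, Zfp930 and Zfp869 fell. Zfp868 had 29.5, 20.8, 22.5 and 21.3 CPM in Taf8-deleted libraries and 40.1, 38.0, 33.1 and 36.6 CPM in Taf8-intact libraries. In Zfp868, as in Zfp963, Taf8-deleted replicate 1 was the highest of its group.

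The other clusters are given by their largest called fall and rise. On chromosome 7, Zfp773 (-0.52) fell in a cluster with 4 lower of 6, and Zfp128 in one with 5 lower of 6, neither with a rise. Zfp180 (-0.74) and Zfp94 (0.23), Zfp60 (-0.54) and Zfp59 (0.31), Zfp788 (-0.40) and Zfp715 (0.25), and Zfp689 (-0.52) and Zfp646 (0.27) were the largest fall and rise of 4 further clusters there. On chromosome 17, the cluster of 14, 13 of them KRAB genes, had Zfp40 (-0.46) and Zfp213 (0.70). Zfp39 (-0.18; not called under upper-quartile or total scaling) and Zfp672 (0.18) on chromosome 11, and Zfp24 (-0.24) and Zfp397 (0.12) on chromosome 18, were small changes in small clusters. In the clusters with no called rise, the largest falls were Zfp113 on chromosome 5 (-0.60), Zfp882 on chromosome 8 (-0.50), Zfp239 on chromosome 6 (-0.41), Zfp846 on chromosome 9 (-0.39) and Zfp335 on chromosome 2 (-0.23).

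**Figure D4:**
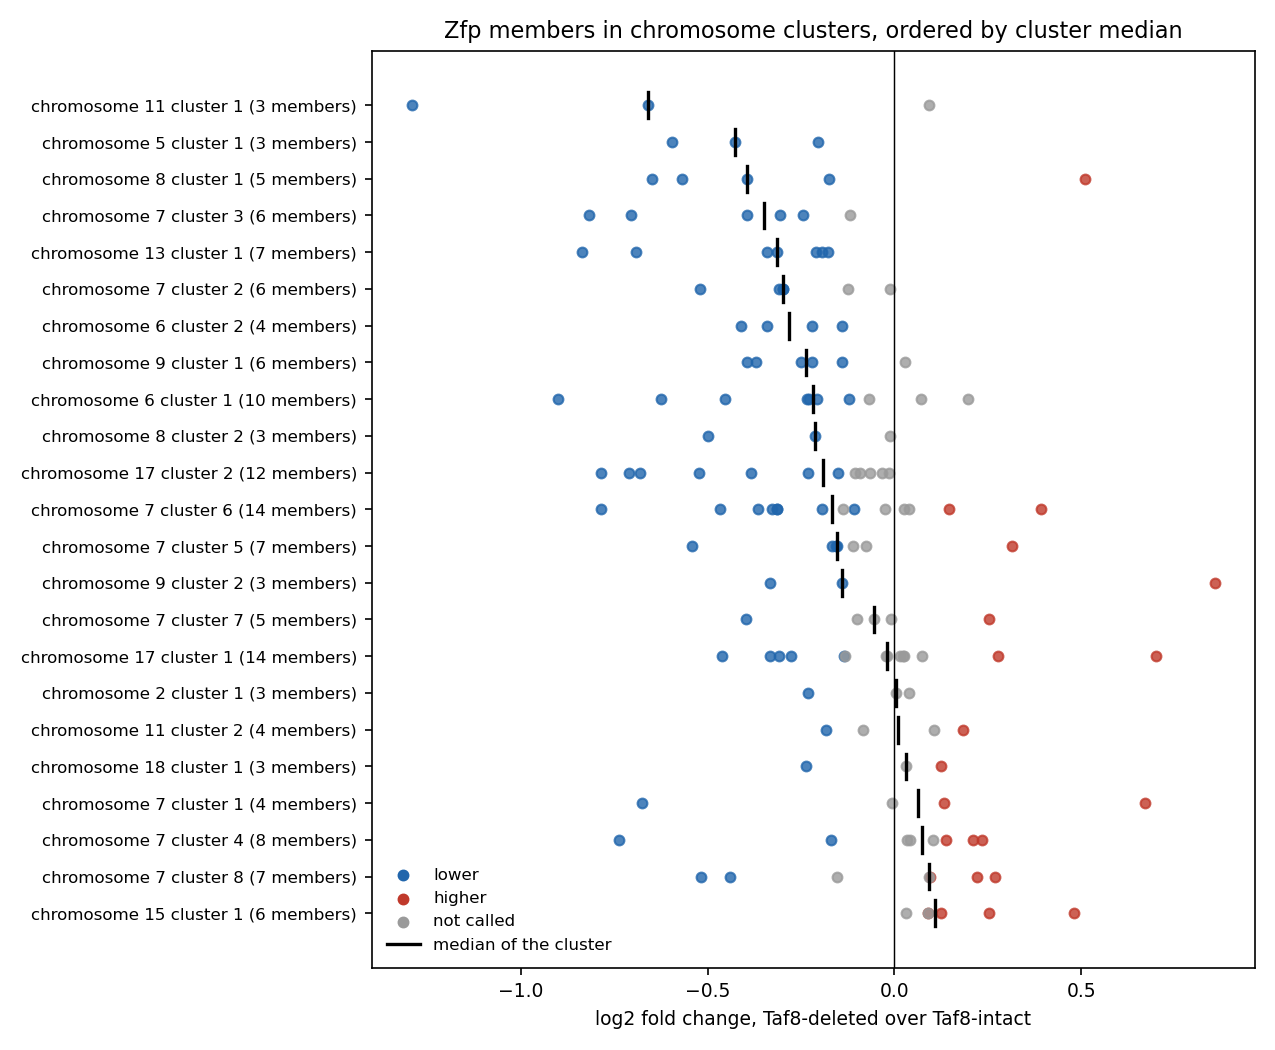
Log2 fold change, Taf8-deleted over Taf8-intact, of the 143 members in 23 chromosome clusters, 1 point per gene, coloured by call, with a bar at each cluster's median. Clusters are ordered by median from -0.66 at the top to 0.11 at the bottom, and 11 of them hold members called in both directions.

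By its pattern a KRAB box was found in the protein of 123 members, and not in that of 135 (2 had no GENCODE protein). The pattern may miss boxes: it was met by Zfp729a and not by its paralog Zfp729b. Of those with the box 73 fell (59.3%) and 10 rose, with a median log2 fold change of -0.16. Of those without a box found 73 fell (54.1%) and 27 rose, with a median of -0.14. This set may hold KRAB proteins, and the 2 sets were not compared by a test. Of the 4 outliers above, no box was found in Zfp346, Zfp213 and Zfp580, and Zfp660 had no protein to search. Fingers per protein ranged from 0 to 36, with a median of 12 in KRAB proteins and 8 in the others, and their number and the log2 fold change had a Pearson r of -0.04 over 258 members, many of them paralogs. The 13 members with fewer than 2 predicted fingers, such as Zfp598, Zfp326 and Zfp804a, had 7 that fell and 2 that rose. Of 93 members that share bases with another gene 56 fell and 12 rose, and of the 167 that do not 90 fell and 26 rose.

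The KRAB partners were called in both directions. Of 27 genes of the KRAB co-repressor machinery 16 fell (59.3%) and 6 rose (22.2%), with a median log2 fold change of -0.15. Among genes with at least 4000 counts 40.4% fell and 29.7% rose, and among all genes tested 32.9% and 30.6%. The list was not compared with them by a test. Trim28 had 610, 647, 657 and 643 CPM in Taf8-deleted libraries and 819, 821, 802 and 828 CPM in Taf8-intact libraries, with no overlap. Its log2 fold change was -0.35 ± 0.03 (SE; adjusted p = 1.06e-06). Setdb1 rose slightly, with 199, 195, 191 and 199 CPM in Taf8-deleted libraries and 178, 178, 173 and 168 CPM in Taf8-intact libraries (log2 fold change 0.17 ± 0.03 (SE), adjusted p = 0.000666). Chd3, a NuRD remodeller, Atf7ip, a Setdb1 partner, Dnmt3a, a DNA methyltransferase, and Ehmt2, a histone H3K9 methyltransferase, fell, with log2 fold changes of -0.98, -0.57, -0.52 and -0.29. The largest change of the 27 was a rise, that of Hdac1, a histone deacetylase, with 24.5, 16.9, 15.5 and 16.7 CPM in Taf8-deleted libraries and 8.46, 8.27, 7.91 and 8.49 CPM in Taf8-intact libraries. Its replicate 1 stood above the other Taf8-deleted libraries, and its log2 fold change was 1.15 ± 0.13 (SE, adjusted p = 2.50e-05), and 1.00 without that library. Hdac1 was counted at a low level, where Hdac2 averaged 424 CPM in Taf8-deleted and 456 CPM in Taf8-intact libraries. How reads with several positions were counted is not given in the sources used here. Dnmt3b, a DNA methyltransferase, rose by 0.66 ± 0.08 on the log2 scale (SE; adjusted p = 1.03e-05).

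Members with a known role were grouped after the values were seen, so that the counts in these groups are descriptions from which nothing is read. Zfp57, a KRAB protein that holds methylation at imprinted regions, had 135, 117, 128 and 146 CPM in Taf8-deleted libraries and 218, 211, 219 and 192 CPM in Taf8-intact libraries. The groups were apart, with a log2 fold change of -0.68 ± 0.07 (SE; adjusted p = 5.20e-06). Zfp445, which acts at imprints beside Zfp57, was slightly lower (-0.14) and lost the call without Taf8-deleted replicate 3 (adjusted p = 0.0503). Zfp568, which represses a placental Igf2 promoter, rose (0.39 ± 0.05 (SE); adjusted p = 3.48e-05).

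Among 11 factors studied in neural development, Zfp462, a large protein linked to neurodevelopmental disorder in humans, fell the most. It had 414, 386, 400 and 417 CPM in Taf8-deleted libraries and 636, 642, 662 and 607 CPM in Taf8-intact libraries, which did not overlap, and its log2 fold change was -0.66 ± 0.04 (SE; adjusted p = 2.87e-08). Zfp503, a striatal regulator, Zfp804a, Zfp703, Zfp423, Zfp292, Zfp609, Zfp335, needed for neurogenesis, and Zfp521 fell with log2 fold changes between -0.42 and -0.13. Zfp711, an X-linked intellectual disability gene in humans, rose (0.26; adjusted p = 0.00011), and Zfp536 did not pass (-0.12; adjusted p = 0.0875). Zfp521 lost the call without Taf8-deleted replicate 1 (adjusted p = 0.0519) or Taf8-intact replicate 2 (0.0617), and Zfp536 passed as lower without Taf8-intact replicate 3 (0.0447). The summed neuron markers were lower in the same libraries, as given above.

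Of 6 factors of promoters and enhancers, Zfp148, Zfp143, Zfp384 and Zfp281 fell (-0.32, -0.23, -0.14 and -0.13) and Zfp263 did not pass (-0.06). Zfp410, an activator of the NuRD remodeller gene Chd4, rose, with 88.6, 89.5, 88.4 and 91.9 CPM in Taf8-deleted libraries and 72.6, 73.9, 73.1 and 70.7 CPM in Taf8-intact libraries (log2 fold change 0.30 ± 0.03 (SE), adjusted p = 2.24e-06). Chd4 itself fell slightly (-0.11; adjusted p = 0.0126), and its groups did not overlap. The 3 zinc finger partners of the chromatin reader Zmynd8 parted: Zfp532 fell (-0.67 ± 0.03 (SE); adjusted p = 9.84e-09), Zfp592 was at -0.01 and Zfp687 rose (0.26 ± 0.04 (SE); adjusted p = 0.000288). Zmynd8 fell more than any of them (-1.34). Among proteins of RNA and ribosomes, Zfp326 and Zfp638 fell (-0.61 and -0.46), Zfp346 and Zfp598, a sensor of collided ribosomes, rose (0.83 and 0.27), and Zfp207, Zfp622 and Zfp106 did not pass. The calls of Zfp281, Zfp384, Zfp422, Zfp445, Zfp521 and Zfp39 were lost under scaling by upper quartiles (adjusted p = 0.051 to 0.139) and by totals alone (0.0618 to 0.167). Zfp281 also lost it without Taf8-deleted replicate 1 or 3 or Taf8-intact replicate 1 or 4 (adjusted p = 0.0519 to 0.0731), and Zfp384 without Taf8-deleted replicate 2 (0.053).

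**Figure D5:**
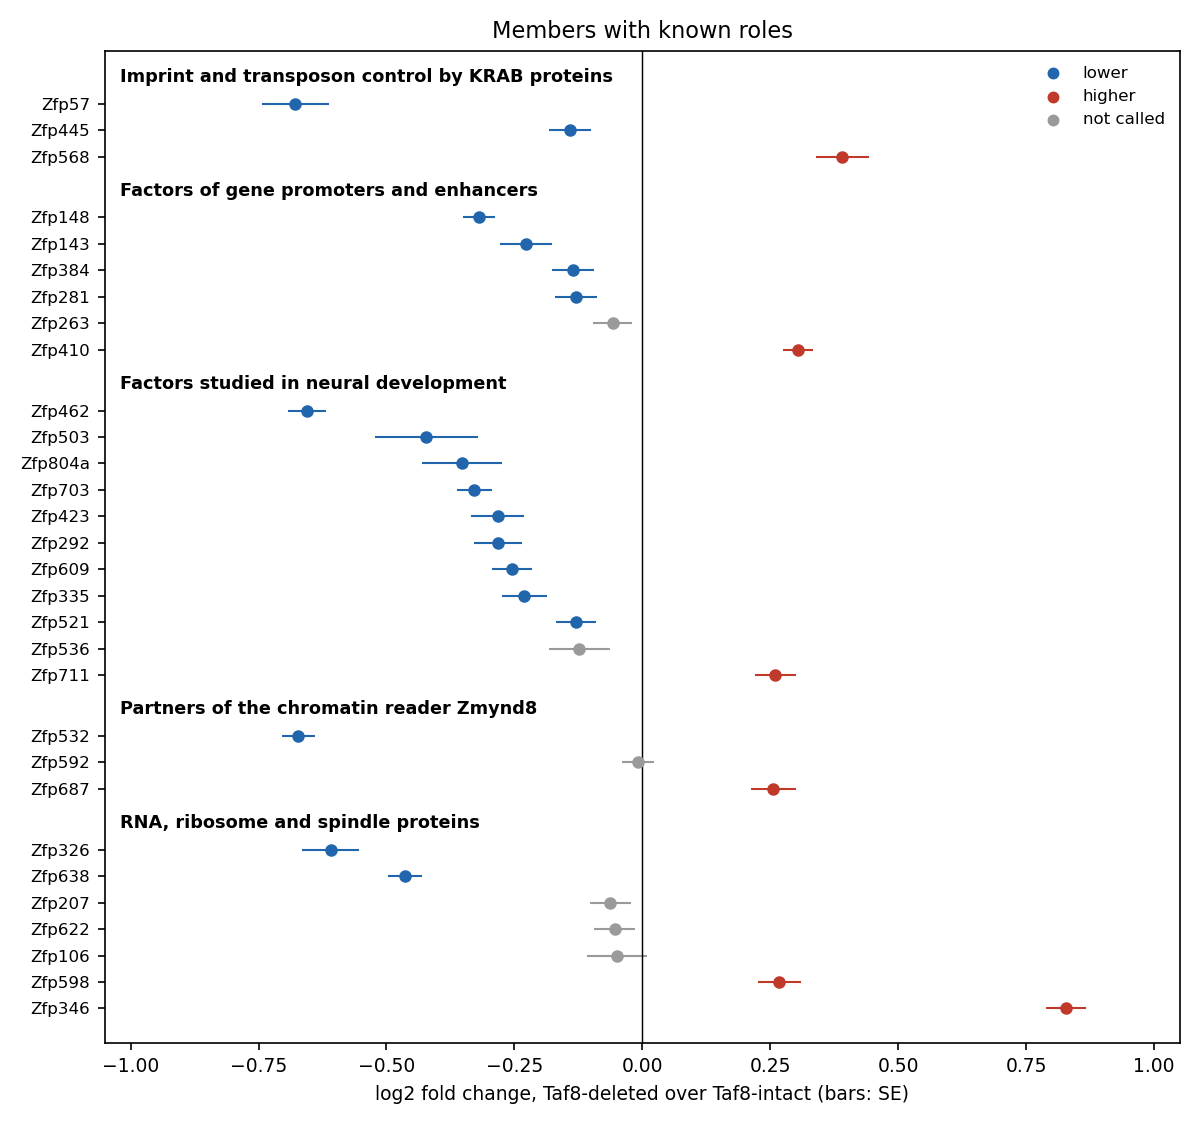
Log2 fold change, Taf8-deleted over Taf8-intact, with SE, of 30 members in 5 groups of known roles, coloured by call. The members shown were picked after their values were seen, and the partners of Zmynd8 spread from -0.67 to 0.26.

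Short lists of zinc finger genes of other names did not all lean as the members did. They are set beside the 32.9% of all genes tested that fell and the 30.6% that rose. Among genes with at least 4000 counts, a limit not applied to these lists, 40.4% fell and 29.7% rose. Of 40 Zbtb genes 21 fell (52.5%) and 7 rose (17.5%), with a median log2 fold change of -0.16. Of 23 Krueppel-like and Sp factor genes 12 fell (52.2%) and 5 rose (21.7%), with a median of -0.13. Of 21 SCAN and KRAB-SCAN zinc finger genes 5 fell (23.8%) and 8 rose (38.1%), with a median of 0.04. Of 11 Zic, Gli and Glis genes 1 fell and 5 rose (median 0.19). Of 70 genes named for CCCH, FYVE and other finger types 25 fell (35.7%) and 18 rose (25.7%), near the shares over all genes (median -0.01). The lists were not compared by a test. Of 103 tested Zfp genes with fewer than 4000 counts 39 fell (37.9%) and 14 rose (13.6%), with a median of -0.13. Like the members, these Zfp genes leaned lower, against 32.9% and 30.6% of all genes tested. At the edge of the rule, Zfp994 (4022 counts), Zfp873 (4039) and Zfp58 (4064) were just inside, and Zfp758 (3972), Zfp566 (3857) and Zfp691 (3851) just outside.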

How the data were processed

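Gene counts were analysed for the cerebral cortex of 8 mouse embryos, 4 Taf8-deleted and 4 Taf8-intact. The deposited values are raw counts per gene, whole numbers that were not normalised, and the 8 single-library lists equal the columns of the count matrix. Per the submitters' processing notes, bcl2fastq 1.8.4, Subread 1.5.0, featureCounts and build mm10 were used. The sources used here give neither the annotation nor the handling of reads with several positions. Symbols and positions came from a RefSeq table of GRCm38.p6, matched by gene number for 25275 of 27179 identifiers. The 1904 without a symbol held 0.49% to 1.64% of counts and stayed in totals and test. 0 columns were left unused.

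Genes were filtered with filterByExpr and tested with edgeR 4.0.16 (R 4.3.3; TMM factors 0.971 to 1.028, robust quasi-likelihood fit, no covariates, Benjamini-Hochberg over 16074 genes, threshold 0.05). SEs were derived from fold changes and F statistics. The common biological coefficient of variation was 7.57%. No pair of replicates agreed within sampling noise (chi-square per gene 4.22 to 14.6). Limits from counts cover counting error only, since reads are not independent molecules. Animal numbers differ between the groups in their leading part, which 3 of the 4 Taf8-intact embryos share and no 2 Taf8-deleted embryos do. What it means is not given. If it marks a litter, litter and genotype cannot be told apart and the Taf8-intact embryos are not 4 independent litters. Alternatives were RLE, upper-quartile and total scaling, 2 other filters, DESeq2 1.42.0, limma 3.58.1 voom with and without quality weights, a replicate block, leaving out symbol-less identifiers, a 1.5-fold threshold, each library left out, membership at 2000 or 8000 counts, and cluster gaps of 0.25 or 2 Mb. Leaving out Taf8-deleted replicates 2 and 3, or replicate 4 of both groups, was added after seeing the data.

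Fingers (C, 2 to 4 residues, C, 12, H, 3 to 5, H) and KRAB A boxes (7 of 8 conserved positions) were searched in translations of GENCODE M21 coding sequences, a source that replaced RefSeq proteins. Members and lists were chosen with earlier results of these data known. The text names Taf8, the 10 largest rises and 10 largest falls among called members, the 5 members highest per kilobase, the members of largest change in each cluster, 3 genes on each side of the count limit, Trim28, Setdb1 and the 4 co-repressor genes of smallest p. Genes of the role groups, Hdac1, Dnmt3b, Thap11, Hcfc1, Zmynd8, Chd4 and other cluster members were named after their values were seen.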

Additional observations from a re-analysis of the deposited data

Results flagged for a closer look

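In 162 groups of 4 libraries, 1 for each named gene and genotype, 12 held a library that lay apart from the other 3 by Dixon's criterion, and chance alone does so in about 1 in 20 groups. In Taf8-deleted libraries, replicate 1 was apart for Zfp963 (21.4 CPM, the others 15.7 to 16.0), Hdac1 (24.5 CPM, the others 15.5 to 16.9) and Dnmt3a (221 CPM, the others 210.04 to 210.18). Replicate 2 was apart for Zfp128 (11.2 CPM, the others 12.5 to 12.6) and Zfp143 (32.0 CPM, the others 35.1 to 35.5). Replicate 4 was apart for Zfp428 (96.8 CPM, the others 104.6 to 105.2), Zfp239 (11.7 CPM, the others 13.2 to 13.3) and Zfp105 (19.6 CPM, the others 16.5 to 16.8). In Taf8-intact libraries, replicate 1 was apart for Ehmt2 (439 CPM, the others 414 to 417), replicate 3 for Zfp715 (35.1 CPM, the others 31.1 to 31.3) and Zfp105 (20.4 CPM, the others 22.3 to 22.6), and replicate 4 for Zfp609 (249 CPM, the others 265 to 267). Each of these genes but Zfp428 passed the test, and none of their calls was lost when any 1 library was left out.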

How the results depend on the processing

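Members that fell numbered 115 to 151 and members that rose 36 to 56 under the other scalings, filters, tools and the replicate block, and 126 to 142 and 37 to 39 with any 1 library left out. Among genes with at least 4000 counts, 33.2% to 41.7% fell and 28% to 37.2% rose under those scalings, filters, tools and the block. With any 1 library left out, 36.8% to 39.2% of these genes fell and 28.3% to 29.8% rose. A test against 1.5-fold left 12 and 3, since it asks for a larger change. Of genes with at least 4000 counts 4.82% and 2.26% passed it. The median log2 fold change of members was -0.089 with upper-quartile factors and -0.085 with library totals only, where the median of all genes was 0.058 and 0.062, and -0.176 without replicate 4 of both groups, an alternative added later (141 lower, 34 higher); the cause was not tested. Without Taf8-deleted replicates 2 and 3, also added later, 120 were lower and 34 higher. The shares among genes with at least 4000 counts were then 36.2% lower and 25.4% higher, and 38.9% and 27.3% without replicate 4 of both groups. With any 1 library left out the members' median was -0.161 to -0.133. In every alternative on the planned list but the fold threshold, 114 of the 146 lower members and 35 of the 38 higher ones kept their call. Membership at 2000 counts gave 164 lower and 46 higher of 307 members, and at 8000 counts 104 and 30 of 186. Co-repressor genes numbered 14 to 17 lower and 6 to 7 higher. Clusters numbered 19 at gaps of 0.25 Mb and 26 at 2 Mb. Same-numbered libraries did not deviate together (correlations -0.229, 0.00519, -0.000469 and -0.455, with 0 of 8 libraries closest to their own number). No pairing by number was seen, and these values cannot tell whether same-numbered libraries were prepared together. The replicate block gave 143 lower and 36 higher members with a median of -0.147.

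Of 81 named genes followed through 18 alternatives, 15 changed side or sign in at least 1. Those that changed sign were not called in either direction. Zfp146 was at 0.033, 0.037 and 0.003 with upper-quartile factors, totals and the CPM filter, and at -0.057 to 0.011 with any 1 library left out (0.002 without Taf8-deleted replicate 1, 0.011 without Taf8-intact replicate 1). Zfp263 was at 0.003 with totals. Zfp592 was at 0.003 with median-ratio factors and with DESeq2, 0.05 with upper-quartile factors, 0.054 with totals, 0.02 with the CPM filter, 0.007 without symbol-less identifiers, and -0.01 to 0.01 with any 1 library left out. Zfp622 was at 0.004 and 0.008, and Zfp106 at 0.007 and 0.011, with upper-quartile factors and totals, and Zfp106 at -0.085 to 0.004 with any 1 library left out. The 10 genes that changed side of the threshold are named in the report.

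Every member was tested, at 4022 to 177763 counts, and the 4 embryos a group limit which small changes pass. The groups differ in both Taf8 alleles and in animal numbers, the marker genes of several cell types moved with them, and reads of paralogs and of overlapping genes are not resolved.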
